A study of Mus musculus with 2 samples.

Results

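Laminins, nidogens and integrins are the protein families through which cells hold on to basement membranes, and their genes were described in the adrenal gland of the mouse. The members were all protein-coding genes whose symbol begins with Lama, Lamb or Lamc and a digit, with Nid and a digit, or with Itga or Itgb. This rule found 44 of the 55450 annotated genes, or of 21901 protein-coding genes. They were 11 laminin chains, 2 nidogens, 18 integrin alpha subunits, 8 integrin beta subunits and 5 genes that share the name but are not classical integrin subunits. Total RNA was depleted of ribosomal RNA and sequenced in a strand-specific way from 300 ng of input with ERCC spike-ins. The series held 2 libraries of 1 group, both from adrenal glands of adult male mice of the 5xFAD/CAST cross, 8 to 10 months of age. 5xFAD is a transgenic model of amyloid deposition whose transgenes are driven by the neuronal Thy1 promoter, and CAST is an inbred strain derived from wild mice. The labels do not say whether a given animal carried the transgenes. Both libraries have a biosample of their own but the same donor entry, so their spread may be technical rather than one between animals.

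A laminin is a cross-shaped trimer of an alpha, a beta and a gamma chain, and laminins polymerise into a sheet on the cell surface. Nidogens bind laminin gamma chains and type IV collagen and so join both networks of the basement membrane. Integrins are receptors made of an alpha and a beta subunit, and the pair decides whether the receptor binds laminin, collagen, fibronectin or a counter-receptor on another cell. In the adrenal gland, cortical cords and chromaffin cell nests lie against a dense bed of sinusoidal capillaries with basement membranes.

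Annotated genes held 29193473 counts in replicate 1 and 26311901 in replicate 2, and spike-ins held 0.469% and 0.504% of all counts. Cortical marker genes were all detected, 6 of 6, with sums of 17125 and 18087 TPM, as were chromaffin markers, 6 of 6, with 1991 and 2300 TPM. Endothelial markers were detected at 8 of 8, with sums of 253.7 and 256.9 TPM. White adipocyte markers, 6 of 6 detected, summed to 701 TPM in replicate 1 and 419 TPM in replicate 2. Macrophage markers, 8 of 8 detected, summed to 253 and 179 TPM. None of 8 lymphocyte markers and none of 7 epithelial markers reached 1 TPM in both libraries. Of 6 platelet markers only Pf4 did, while Gp9, Gp1ba, Gp1bb and Gp6 had at most 2 counts in a library. These are bulk tissue values, in which fewer cells of a type and less RNA per cell cannot be told apart. With 1 group there was nothing to test, and the smallest two-sided p that 2 libraries allow by sign flips is 0.5. Values are given for both libraries, and a mean ± SD is over n = 2.

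Most members were expressed. At 1 TPM (a share of all transcripts, corrected for transcript length) or more in both libraries, 32 of 44 members were detected, which is 72.7%, against 56.4% of all protein-coding genes. Of these, 14 stood at 10 TPM or more in both libraries and 18 between 1 and 10 TPM. The highest members were the integrin subunit Itgb5, the laminin chain Lamb1 and the integrin subunit Itgb1, whose mean levels lay above those of 97.4%, 96.8% and 96.6% of protein-coding genes. The median member had 3.99 TPM, against 2.65 TPM for all protein-coding genes.

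**Figure D1:**
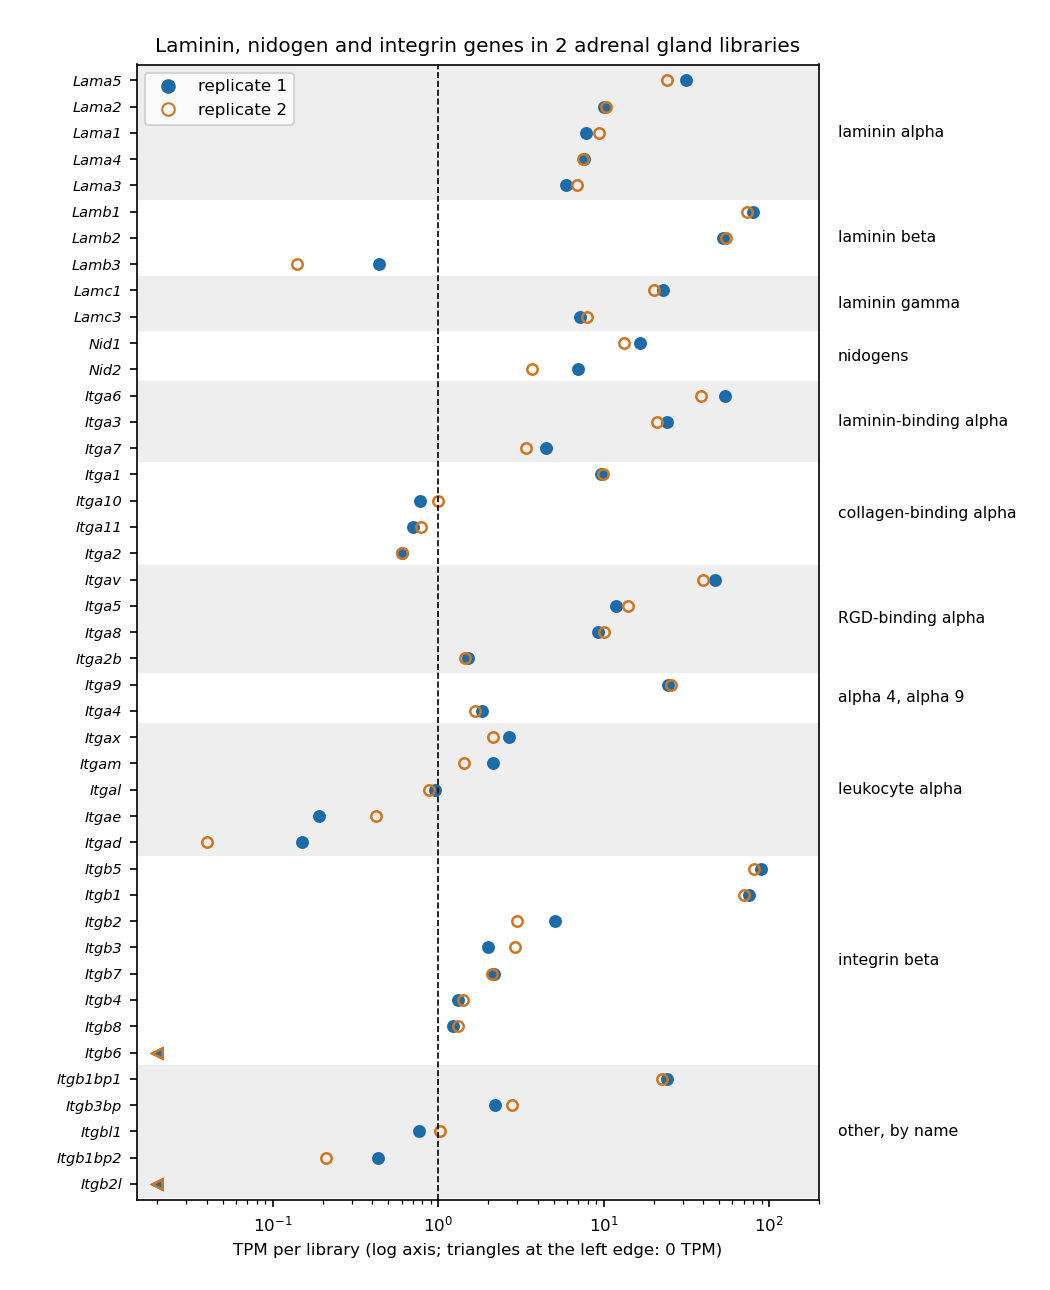
Each row is a member gene, grouped by role, and each point is its TPM in one library on a log axis, filled for replicate 1 and open for replicate 2, with triangles at the left edge for 0 TPM. The dashed line marks 1 TPM. Beta chains Lamb1 and Lamb2 and the subunits Itgb5 and Itgb1 lie above 50 TPM in both libraries, while Lamb3, Itgad and Itgae lie below 0.5 TPM.

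All 5 laminin alpha chains were detected, and Lama5, the chain of many mature vascular and epithelial basement membranes, was the highest. Lama5 had 31.5 TPM in replicate 1 and 24.1 TPM in replicate 2. Lama2, the chain of muscle and peripheral nerve laminin, had 10.00 and 10.3 TPM. Lama1, the chain of early embryonic basement membranes, had 7.77 and 9.38 TPM. The other two alpha chains were near that level. Lama4, a chain of endothelial and muscle basement membranes, had 7.57 and 7.51 TPM, and Lama3, the chain of epithelial anchoring laminin, had 5.92 and 6.88 TPM. In the gene table the values of Lama5 and of Lama2 did not overlap those of any other alpha chain. For Lama2 this turned with the route: the second quantifier gave it 7.05 and 6.43 TPM, against 6.87 and 6.34 TPM for Lama1, and its full-length transcript, described below, was lower than those of Lama1 (5.28 and 6.35 TPM) and Lama3 (4.87 and 5.81 TPM). In the gene table the values of Lama1 lay just above those of Lama4, and those of Lama3 just below. The second quantifier kept this order, with 5.80 and 6.27 TPM for Lama4 and 5.02 and 5.71 TPM for Lama3. The full-length Lama4-201, at 4.43 and 3.77 TPM, was instead lower than the full-length transcripts of the other alpha chains in both libraries. Lama5 made up 50.2% and 41.5% of the alpha chain sum, and Lama4 12.1% and 12.9%.

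The beta position was filled by Lamb1 and Lamb2. Lamb1, the widespread beta chain, had 80.2 and 73.9 TPM, and Lamb2, the chain of synaptic, renal and vascular laminins, had 52.3 and 54.9 TPM. Lamb1 was the higher in both libraries, at 60.3% and 57.3% of the beta chain sum. Lamb3, which belongs to the epithelial anchoring laminin, had only 18 and 17 counts, or 0.44 and 0.14 TPM.

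Lamc1, the gamma chain of most laminins, had 22.7 and 20.1 TPM and made up 75.7% and 71.7% of the gamma chain sum. Lamc3, a less common gamma chain, had 7.16 and 7.91 TPM. Lama3, which pairs with Lamb3 in epithelial anchoring structures, was detected with 1621 and 1702 counts, while Lamb3 was not detected. Of the Lama3 counts, 1456 and 1553 lay on the 10548-nt Lama3-201. The 5551-nt Lama3-202 had 165 and 149 counts, and 0 in the second quantifier. The value of the whole gene does not tell these forms apart.

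The chains of the trimer were not equally abundant as RNA. The alpha chain sum was 62.8 and 58.1 TPM, the beta chain sum 133 and 129 TPM, and the gamma chain sum 30.0 and 28.1 TPM. Alpha over gamma was 2.09 and 2.07, a ratio of 2.08 ± 0.015 (SD, n = 2), and beta over gamma was 4.43 and 4.60. The order beta, alpha, gamma held in both libraries. The size of the alpha excess depended on which transcripts were summed: on the most counted protein-coding transcript of each gene alone it was 1.57, a setting added after seeing the data, and 1.63 in the second quantifier, another deposited table of transcript levels. Beta over gamma was 3.67 and 4.76 by the same 2 routes.

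**Figure D2:**
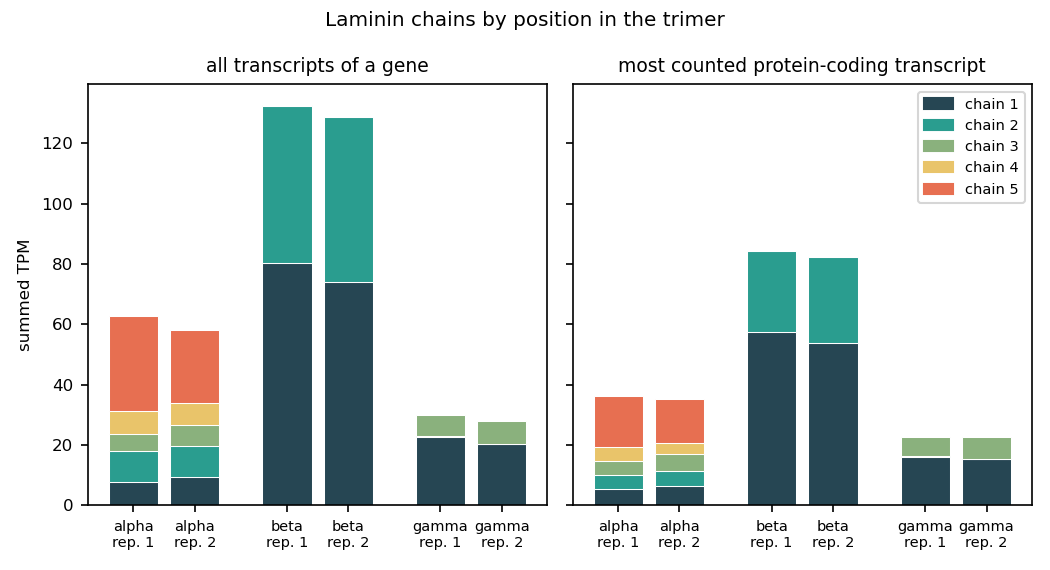
Bars stack the TPM of the laminin chains at the alpha, beta and gamma positions for each library, on the left over all transcripts of a gene and on the right for its most counted protein-coding transcript. The beta stack is the tallest in both libraries and both panels, and the alpha stack on the left is about 60 TPM, against about 30 TPM for gamma.

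Part of these levels came from short annotated transcripts, which take few reads but a large TPM. In Lama5, transcripts under 1000 nt took 43.3% of the TPM with 3.49% of the counts. The 734-nt processed transcript Lama5-203 had 7.88 and 7.10 TPM from 143 and 115 counts, while the full-length Lama5-201 had 17.1 and 14.4 TPM from 5536 and 4159 counts. The second quantifier gave Lama5-203 a value of 0 in both libraries. In Lamb2, short transcripts took 48.4% of the TPM with 5.67% of the counts. The full-length Lamb2-201 had 26.7 and 28.6 TPM, and the 345-nt Lamb2-206 had 13.3 and 13.1 TPM from 94 and 82 counts. Lamb1-201 held 57.4 and 53.6 TPM and Lamc1-201 held 16.0 and 15.3 TPM. The 762-nt Lamc1-205, annotated as a target of nonsense-mediated decay, had 3.41 and 3.09 TPM. Lama2-201 held 4.52 and 4.78 TPM, beside a retained-intron form, Lama2-204, at 2.60 and 2.33 TPM and the shorter Lama2-208 at 1.25 and 1.38 TPM. Over the 32 detected members the median share of short transcripts was 12.0% of the TPM and 1.09% of the counts, against 14.5% and 2.78% over detected protein-coding genes.

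**Figure D3:**
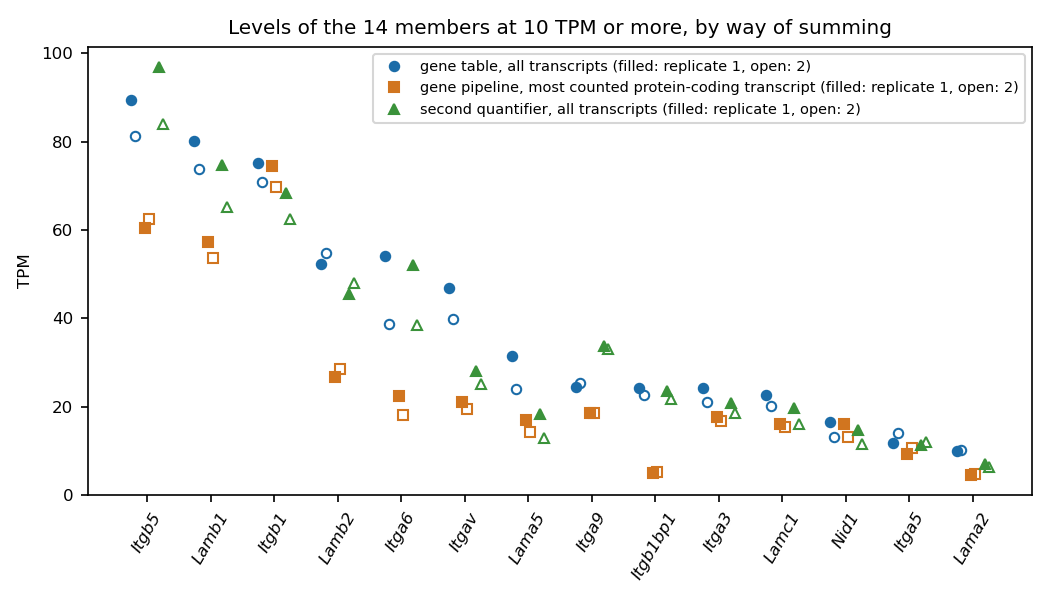
Points give the TPM of the 14 members at 10 TPM or more in each library, filled for replicate 1 and open for replicate 2, from the gene table (circles), from the most counted protein-coding transcript (squares) and from the second quantifier (triangles). Itgb1 and Nid1 change little between the 3 routes, while for Lamb2, Itgav, Itga6 and Itgb1bp1 the single transcript lies well below the gene.

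Both nidogens were detected. Nid1, the main nidogen of most basement membranes, had 16.6 and 13.2 TPM, and 98.4% and 100% of its counts lay on the transcript Nid1-201. Nid2, its partly redundant relative, had 6.95 and 3.66 TPM. The Nid2 gap in TPM rested partly on the 543-nt retained-intron transcript Nid2-202, with 2.53 TPM from 32 counts in replicate 1 and 0 counts in replicate 2. By counts Nid2 differed less, at 637 and 447, with a log2 ratio of replicate 2 over replicate 1 of -0.37 ± 0.089 (counting SE). Nid2 exons share 437 bases with Rtraf on the opposite strand, a gene at 24.9 TPM, and strand use in the counting is not stated, so reads of the pair may be shared. Nid1 over Lamc1 was 0.73 and 0.66.

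Among the genes that make the rest of the basement membrane, 18 of 20 were detected. The highest were Sparc, a collagen-binding matrix protein, at 390 and 368 TPM, and Col4a1, a chain of the common type IV collagen, at 101 and 93.6 TPM. Egfl7, an endothelial matrix protein, had 79.4 and 82.6 TPM, and Hspg2, which encodes perlecan, had 76.7 and 67.9 TPM. Of these 20 genes 15 were lower in replicate 2, against 49.9% of all protein-coding genes, with a median log2 ratio of -0.16. None differed by 1.5-fold, against 4.82% of all protein-coding genes.

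The integrins that bind laminin were led by Itga6. Itga6, which pairs with Itgb1 or Itgb4, had 54.2 TPM in replicate 1 and 38.8 TPM in replicate 2. Itga3, a receptor subunit for laminins with Lama5 or Lama3, had 24.2 and 21.02 TPM. Itga7, the laminin receptor subunit of muscle, had 4.49 and 3.41 TPM. The values of the 3 genes did not overlap each other. Itgb4, the partner of Itga6 in epithelial anchoring structures, had 1.31 and 1.41 TPM, so that Itgb4 over Itga6 was 0.024 and 0.036. Itgb4 had several long protein-coding transcripts, among them Itgb4-201 at 0.42 and 0.71 TPM and Itgb4-204 at 0.87 and 0.17 TPM. Transcripts outside the protein-coding class took 4.43% of the Itgb4 TPM.

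These 3 alpha subunits have known alternative forms, and their sequences show what differs. Itga6 and Itga3 each end in one of 2 cytoplasmic tails, A or B, that begin at the same residue of the protein. The coding sequence of the exon that starts each tail is printed from the GENCODE M21 transcript, with stop codon, and capitals mark its codons 2 to 6, which lie at the membrane. In both Itga6 tails and in the A tail of Itga3 these codons read glycine, phenylalanine, phenylalanine, lysine and arginine, the motif shared by integrin alpha tails. In the Itga3 B tail they read aspartate, phenylalanine, phenylalanine, lysine and proline. For mm10 the positions are chr2:71853534-71853641 (plus strand, Itga6-201), chr2:71855854-71856015 (plus, Itga6-202), chr11:95046480-95046590 (minus, Itga3-201) and chr11:95045608-95045763 (minus, Itga3-203).
Itga6-201, A tail: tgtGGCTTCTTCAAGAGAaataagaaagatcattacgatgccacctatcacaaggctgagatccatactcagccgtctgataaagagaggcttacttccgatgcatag
Itga6-202, B tail: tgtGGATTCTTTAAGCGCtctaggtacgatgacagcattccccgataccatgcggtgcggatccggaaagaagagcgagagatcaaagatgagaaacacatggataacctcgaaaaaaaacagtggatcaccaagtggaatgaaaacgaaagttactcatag
Itga3-201, A tail: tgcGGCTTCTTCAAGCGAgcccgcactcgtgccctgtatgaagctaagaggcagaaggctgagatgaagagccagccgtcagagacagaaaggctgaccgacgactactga
Itga3-203, B tail: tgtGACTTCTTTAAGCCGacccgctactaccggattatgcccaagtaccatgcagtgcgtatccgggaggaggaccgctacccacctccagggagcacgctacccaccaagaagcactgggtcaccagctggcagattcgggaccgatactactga
Of the 2 transcripts compared for each gene, the A form took most or all of the counts in the first quantification. Itga6-201 had 2710 and 1952 counts, against 624 and 193 for Itga6-202, so that the A transcript held 80.7% and 90.7% of the TPM of the pair. The second quantifier put this share at 49.5% and 70.3%, so the A excess in replicate 1 was not seen there. In both quantifiers the A share was higher in replicate 2. Itga3-201 had 2403 and 2050 counts and Itga3-203 had 0 in both libraries and both quantifiers. Other protein-coding transcripts had counts too, Itga3-202 with 188 and 203 and Itga6-207 with 202 and 123. Their tails were not examined, so the use of the tails by the whole gene is not shown. A further Itga6 transcript, the 3-exon processed transcript Itga6-203, had 19.8 and 13.8 TPM, or 36.5% and 35.6% of the gene.

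Itga7 has alternative tails too, but the 2 transcripts compared here differ in the extracellular part, where one of 2 mutually exclusive exons, known as X1 and X2 forms, is used. The exon of Itga7-201 has 120 bases at chr10:128941822-128941941, and that of Itga7-202 has 132 bases at chr10:128941445-128941576, both on the plus strand of mm10. They are shown whole because they are the only stretch compared between these transcripts, and no base is marked.
Itga7-201, exon 5: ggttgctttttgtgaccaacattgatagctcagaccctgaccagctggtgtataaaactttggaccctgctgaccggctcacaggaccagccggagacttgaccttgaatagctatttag
Itga7-202, exon 5: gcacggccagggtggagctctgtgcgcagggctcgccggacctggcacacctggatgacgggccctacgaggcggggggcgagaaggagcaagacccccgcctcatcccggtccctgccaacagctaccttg
The transcript Itga7-201 had 152 and 144 counts, and Itga7-202 had 180 and 64 counts. Itga7-201 thus held 45.8% of the TPM of the pair in replicate 1 and 69.2% in replicate 2, and 39.9% and 65.5% in the second quantifier. The lower Itga7 count of replicate 2, 250 against 383 in replicate 1, lay largely in Itga7-202.

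**Figure D4:**
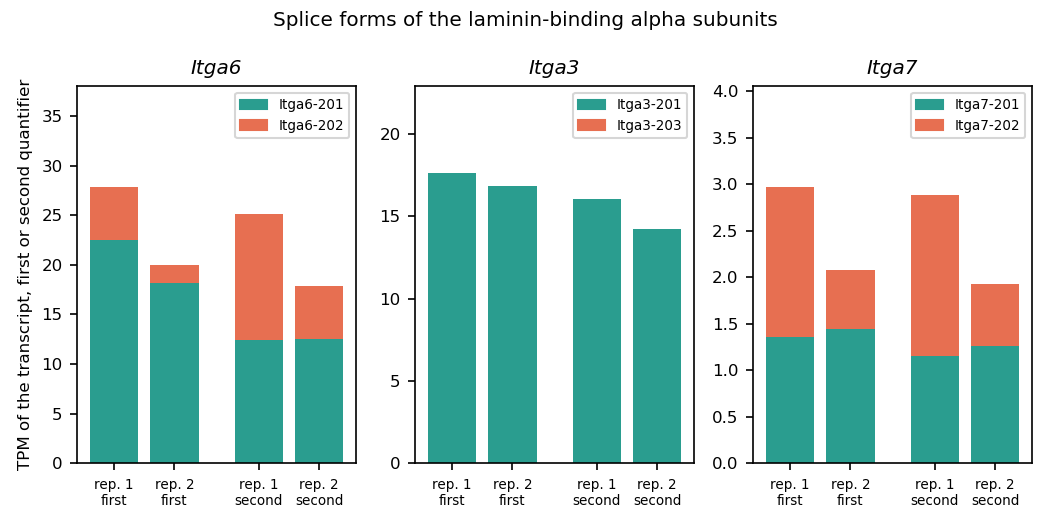
Bars stack the TPM of the 2 named transcripts of Itga6, Itga3 and Itga7 for each library, for the pipeline of the gene tables (first) and for the second quantifier. Itga3-203 is at 0 throughout, Itga6-202 is a smaller part of the pair in replicate 2 than in replicate 1 by both routes, and Itga7-202 is below Itga7-201 in replicate 2 only.

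Of the 4 collagen-binding alpha subunits only Itga1 was detected. Itga1, a receptor subunit for type IV collagen, had 9.58 and 9.88 TPM, but its full-length transcript Itga1-201 had 4.48 and 4.95 TPM. Itga10, Itga11 and Itga2, which bind fibrillar and cartilage collagens to differing degrees, had between 0.60 and 1.00 TPM. Itga1 shares 685 exonic bases with the same-strand gene model Gm49395, and Itga10 shares 1739 bases with Gm42957, so their counts are uncertain to that extent.

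The subunits that bind the arginine-glycine-aspartate motif were all detected, 4 of 4. Itgav, a subunit for vitronectin, fibronectin and latent TGF-beta, had 46.8 and 39.9 TPM in the gene table. Its full-length transcript Itgav-201 had 21.2 and 19.5 TPM, because 46.6% of the gene's TPM lay on transcripts under 1000 nt with 5.87% of its counts. These were chiefly Itgav-205, of 463 nt, at 14.3 and 8.96 TPM, and Itgav-206, of 688 nt, at 7.73 and 8.26 TPM. Itga5, the classical fibronectin receptor subunit, had 11.8 and 14.1 TPM, of which Itga5-201 held 9.26 and 10.7 TPM. Itga8, the nephronectin receptor subunit of mesenchymal cells, had 9.28 and 10.0 TPM. Itga2b, the platelet subunit, had 1.52 and 1.45 TPM from 42 and 50 counts, with 77.7% of its TPM on short transcripts and 0.23 and 0.37 TPM on its full-length form.

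Itga9, a receptor subunit for tenascin, osteopontin and VCAM-1, had 24.5 and 25.5 TPM. Of this, the full-length Itga9-201 had 18.7 and 18.6 TPM, and the 650-nt Itga9-204 had 3.60 and 5.06 TPM. Its leukocyte relative Itga4 had 1.85 and 1.67 TPM, and 0.82 and 0.84 TPM on Itga4-201.

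The beta subunits were dominated by Itgb5 and Itgb1. Itgb5, which pairs with Itgav, had 89.4 and 81.4 TPM, or 50.7% and 49.9% of the beta subunit sum. Itgb1, the partner of the laminin, collagen and fibronectin receptor alpha subunits, had 75.3 and 70.9 TPM, or 42.7% and 43.5%. The other 6 beta subunits together made up the small rest. Itgb3, another partner of Itgav, had 2.00 and 2.91 TPM, and Itgb7, a lymphocyte subunit, had 2.16 and 2.12 TPM. Of the Itgb7 level, 56.8% lay on short transcripts, and Itgb7-201 had 0.76 and 1.09 TPM. Itgb8, which binds latent TGF-beta with Itgav, had 1.23 and 1.32 TPM, and Itgb6, its epithelial counterpart, had 0 counts in both libraries. The order of Itgb5 over Itgb1 turned when only a single transcript per gene was taken. Itgb1-201 had 74.6 and 69.7 TPM, and Itgb5-202, the most counted Itgb5 transcript, had 60.5 and 62.5 TPM. The protein-coding Itgb5-207, at 16.0 and 12.9 TPM, and Itgb5-201, at 12.9 and 5.53 TPM, were then left out. With single transcripts Itgb1 held 50.9% of the beta sum, against 43.1% with whole genes. All protein-coding transcripts together gave 43.3%, and the second quantifier gave 39.1%. Itgb5 over Itgav was 1.91 and 2.04 with whole genes. The second quantifier gave Itgb5 96.9 and 84.0 TPM and Itgav 28.2 and 25.2 TPM, a higher ratio in both libraries.

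Itgb1 RNA was lower than the sum of the alpha subunits that can pair with it, which was 189 and 167 TPM, at a ratio of 0.399 and 0.426. With single full-length transcripts the ratio was 0.700. Itgb2, the shared beta subunit of leukocyte integrins, had 5.06 and 2.98 TPM, and its ratio to the sum of its alpha partners was 0.856 and 0.661.

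The leukocyte alpha subunits were low. Itgax, of dendritic cells and macrophages, had 2.68 and 2.15 TPM, and Itgam, of macrophages, monocytes and neutrophils, had 2.13 and 1.44 TPM. Itgal, of lymphocytes and other leukocytes, had 0.95 and 0.88 TPM. Itgae, of intraepithelial lymphocytes, had 0.19 and 0.42 TPM, and Itgad had 0.15 and 0.04 TPM. Itgad and Itgax had counts with fractions, a sign of reads assigned to more than one gene. Outside the leukocyte subunits, Itgb5, Itga6, Nid1, Itga1 and Itga10 had such counts too. Itgam shares 3450 exonic bases with the gene model Gm49368, which is listed at 0 TPM.

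The 5 genes matched by name only were of mixed level. Itgb1bp1, which encodes ICAP-1, a binder of the Itgb1 tail, had 24.2 and 22.6 TPM. Its most counted transcript Itgb1bp1-206 had 4.98 and 5.15 TPM, with Itgb1bp1-202 at 6.78 and 5.50 TPM and Itgb1bp1-207 at 4.12 and 4.63 TPM. On the opposite strand, Itgb1bp1 exons share 402 bases with Asap2, at 4.6 TPM, and 196 bases with Cpsf3, at 24.9 TPM. Itgb3bp, which encodes the kinetochore protein CENP-R, had 2.20 and 2.78 TPM, with 78.2% of it on short transcripts. Its protein-coding transcript Itgb3bp-204 had 0.51 and 0.44 TPM. Itgb3bp exons share 398 bases with Pgm1 on the opposite strand, a gene at 16.7 TPM. Itgbl1 had 0.77 and 1.03 TPM, Itgb1bp2, which encodes the muscle protein melusin, had 0.43 and 0.21 TPM, and Itgb2l had 0 counts in both libraries.

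Genes that act with the receptors were broadly present. Of 29 integrin activators and adaptors 28 were detected, led by the tetraspanins Cd81 at 243 and 244 TPM and Cd151, a partner of laminin-binding integrins, at 148 and 144 TPM. Tns1, a tensin, had 150 and 162 TPM, and Tln1, the talin that switches integrins on, had 103 and 101 TPM. Fermt1, the kindlin of epithelia, had 0 counts. Of these, 21 of 28 with enough counts were lower in replicate 2, against 49.9% of all protein-coding genes, with a median log2 ratio of -0.062. None was past 1.5-fold, against 4.82%. Of 15 laminin receptors outside the integrins and the genes that glycosylate them, 13 were detected. Rpsa, a ribosomal protein also known as a laminin receptor, had 223 and 229 TPM, Dag1, which encodes dystroglycan, had 48.2 and 51.1 TPM, Utrn had 39.9 and 41.2 TPM and Sgce had 29.6 and 25.1 TPM. None of the 13 with enough counts differed by 1.5-fold, against 4.82% of all protein-coding genes.

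The 2 libraries were then set against each other to show how far member levels vary within the group. Of the 44 members 38 averaged 20 counts or more, and 4 of them differed by more than 1.5-fold after TMM scaling, or 10.5%, against 4.82% of all protein-coding genes with that count. With numbers this small the share rests on 4 genes. Of the 38, 20 were lower in replicate 2, or 52.6%, against 49.9% of all protein-coding genes. The median log2 ratio of the members was -0.013, against 0.00017 for all, and the median absolute ratio was 0.18, against 0.11.

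Of the 4 genes, 2 belong to 1 leukocyte receptor. Itgb2 had 395 and 211 counts, a log2 ratio of -0.76 ± 0.12 (counting SE), and Itgam, its partner in the complement receptor, had 266 and 130 counts, a log2 ratio of -0.89 ± 0.15. Itgax, another partner, had 233 and 173 counts and a log2 ratio of -0.29 ± 0.15, and Itgal had 124 and 109 counts and a log2 ratio of -0.043 ± 0.19. Among the 8 macrophage markers 4 were lower in replicate 2, against 49.9% of all protein-coding genes. Lyz2 had a log2 ratio of -0.86, Cd68 of -0.71 and Adgre1 of -0.53, while Csf1r stood at 0.14 and C1qa at 0.031. The part of these cells in the Itgb2 and Itgam values was not tested.

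The other two genes were low and higher in replicate 2. Itga10 had 69 and 109 counts, a log2 ratio of 0.80 ± 0.22, and Itgae had 20 and 40 counts, a log2 ratio of 1.12 ± 0.39. Only Itgb2 and Itgam remained past 1.5-fold among the 30 members averaging 100 counts or more, and only Itgae was past 2-fold. By TPM the calls of Itgam and Itga10 were lost and Nid2 was past 1.5-fold, and with spike-in totals Itga6 was past 1.5-fold as well.

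Below that fold, several members differed by about 4 or more times their counting error. Small changes pass this bar when counts are high, and the share of all protein-coding genes past it was not computed. Not every such member is listed, and Lamb1 at -0.14 ± 0.021 and Itgb5 at -0.15 ± 0.025 passed it too. Itga6 had 5105 and 3281 counts, a log2 ratio of -0.50 ± 0.032, and Itga7 had a log2 ratio of -0.47 ± 0.12. Nid1 had 2814 and 2020 counts, a log2 ratio of -0.34 ± 0.042, and Lama5 had 5746 and 4299 counts, a log2 ratio of -0.28 ± 0.029. Itgb3 was higher in replicate 2, with 325 and 423 counts and a log2 ratio of 0.52 ± 0.11, as was Itga8, with 1170 and 1312 counts and a log2 ratio of 0.31 ± 0.058. By role, all 3 laminin-binding alpha subunits and both nidogens were lower in replicate 2, against 49.9% of all protein-coding genes. The laminin alpha chains split. Lama4 at -0.19 and Lama5 were lower, Lama1 at 0.19 and Lama3 at 0.21 were higher, and Lama2 was at 0.021. Lamb1, Lamb2, Lamc1 and Lamc3 lay between -0.14 and 0.13.

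The adipocyte markers moved most among the marker lists, with 6 of 6 lower in replicate 2, 5 of them past 1.5-fold, and a median log2 ratio of -0.86. Of all protein-coding genes 49.9% were lower and 4.82% were past 1.5-fold. The part of adipocytes in the lower Itga6, Itga7, Nid1 and Lama5 values was not tested. Endothelial markers had a median log2 ratio of -0.038 and chromaffin markers of 0.17. None was past 1.5-fold in either list, against the same 4.82%.

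**Figure D5:**
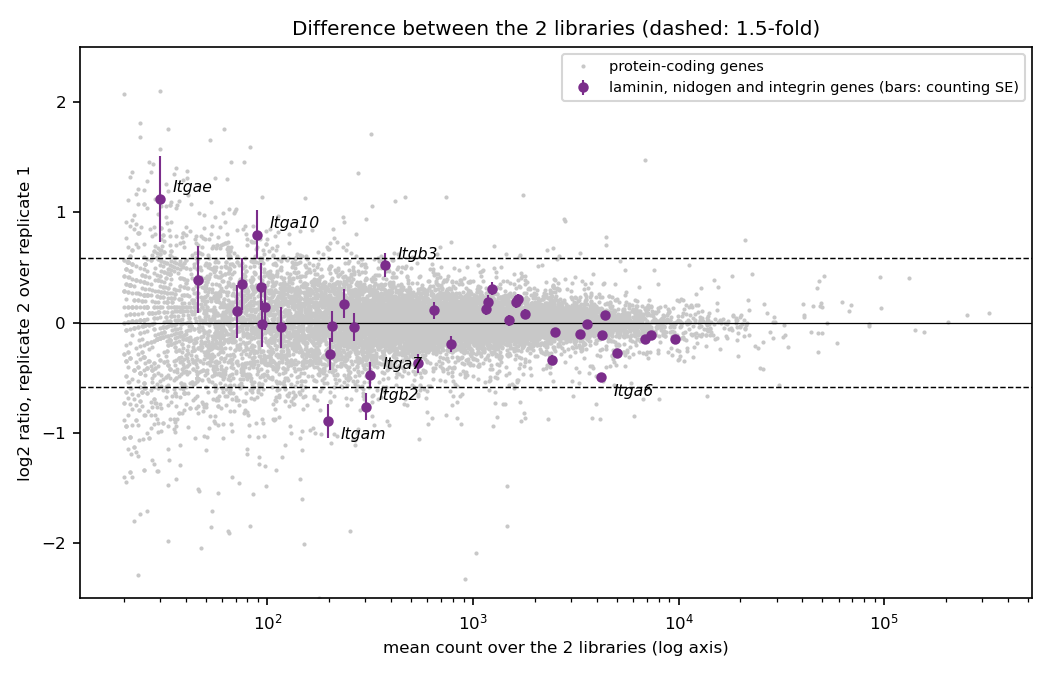
Each point is a protein-coding gene averaging 20 counts or more, placed by its mean count on a log axis and by its log2 ratio of replicate 2 over replicate 1; purple points are members with their counting SE, and a few genes lie outside the range drawn. Dashed lines mark 1.5-fold, with Itgae and Itga10 above and Itgam and Itgb2 below, while Itga6 is the lowest of the members with a mean count over 1000.

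Ligands of integrins outside the laminins were set beside the receptors. Of 26 such genes matched by symbol, 19 were detected and 20 had enough counts, of which 4 differed by more than 1.5-fold, against 4.82% of all protein-coding genes. Mfge8, a ligand of Itgav receptors, was the highest at 106 and 101 TPM. Spp1, which encodes osteopontin, had 53.9 TPM in replicate 1 and 108 TPM in replicate 2, a log2 ratio of 0.94 ± 0.040. Fn1, which encodes fibronectin, had 14.0 and 4.67 TPM, a log2 ratio of -1.84 ± 0.066. Col3a1, a fibrillar collagen, had a log2 ratio of -0.74 and Ccn1, a matricellular protein, of -1.03. Ccn2 had 26.7 and 35.4 TPM and Col1a2 had 21.8 and 20.4 TPM, both within 1.5-fold.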

How the data were processed

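Gene-level expected counts, TPM, FPKM, posterior mean TPM, the posterior SD of each count (a score in the units of counts) and interval bounds for TPM (signal, in TPM) were deposited by the authors, per the file headers, with assembly mm10 per the labels. Transcript tables of the same pipeline, deposited by the authors, gave expected counts, TPM and the percent of the gene taken by each transcript. A further deposited table of estimated counts and TPM per transcript is called the second quantifier, and was summed per gene. Its names follow GENCODE M21. No source used here gives the tools or counting settings. Reads of CAST alleles were counted against mm10, and the effect was not analysed here.

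The members and gene lists were chosen with earlier results of these data known. Entries that name no gene, and spike-ins, stayed out of library sizes. Expected counts were rounded, scaled by TMM totals from edgeR 4.0.16 in R 4.3.3 and given a prior count of 0.5. DESeq2 1.42.0 size factors were an alternative. Ratios used genes averaging 20 counts or more, with a limit of 1.5-fold. Errors of ratios are Poisson counting errors, which cover counting error only, since reads are not independent molecules. Ratio code was tested on simulated data. Detection was 1 TPM in both libraries. No p-values were computed. Python 3.11.15, pandas 2.3.3, numpy 2.4.6, biopython 1.88 and matplotlib 3.10.9 were used.

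The text names every detected member, the 4 highest genes of each pathway list, members past 1.5-fold, and transcripts with at least 10% of a gene in both libraries where the gene averaged 10 TPM. Other genes and transcripts were named after their values were seen. 1 member is not reported here by name, though counts and sums include it. Alternatives were other scalings, limits, units, quantifiers and leaving out each library.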

Additional observations from a re-analysis of the deposited data

How the results depend on the processing

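Of 78 values recomputed under alternatives, 54 stayed within a set limit and 24 moved further. For shares and ratios of TPM the limit was the SD over the 2 libraries. It was 1.5 times for a count and the median counting SE for the median log2 ratio. With 2 libraries, a share or ratio from either alone always lies within that SD of their mean. Leaving out a library therefore could not move shares or ratios, and their staying within the limit says nothing. Detected members numbered 27 to 37 under TPM limits of 2 and 0.5, the FPKM, posterior mean TPM, the second quantifier and leaving out each library, against 32. Leaving out a library gave 32 to 34 detected members, 12.1% to 12.9% for Lama4, 41.5% to 50.2% for Lama5, 57.3% to 60.3% for Lamb1, 71.7% to 75.7% for Lamc1, 2.07 to 2.09 for alpha over gamma, 4.43 to 4.60 for beta over gamma, 42.7% to 43.5% for Itgb1, 0.399 to 0.426 for Itgb1 over its partners and 0.661 to 0.856 for Itgb2 over its partners. The second quantifier gave a Lama4 share of 15.1%, a Lama5 share of 38.3%, alpha over gamma of 1.63, beta over gamma of 4.76 and an Itgb1 share of 39.1%. Posterior mean TPM gave an Itgb1 share of 42.3%. Transcripts of the protein-coding class alone gave 10.7% for Lama4, 56.2% for Lamb1, 69.1% for Lamc1, alpha over gamma of 1.56, beta over gamma of 4.14 and Itgb1 over its partners of 0.540. The most counted protein-coding transcript, chosen after seeing the data like the Lama5 share, gave 11.5% for Lama4, 66.6% for Lamb1, 69.1% for Lamc1, 1.57 and 3.67 for alpha and beta over gamma, 50.9% for Itgb1, 0.700 for Itgb1 over its partners and 1.03 for Itgb2 over its partners. Main values are 12.5%, 45.8%, 58.8%, 73.7%, 2.08, 4.51, 43.1%, 0.412 and 0.758. The members past 1.5-fold, 4 with the scaling used, numbered 7 among genes averaging 5 counts or more and 2 among those averaging 100, 1 past 2-fold, 5 with spike-in totals and 3 by TPM, where Nid2 was past 1.5-fold and Itga10 and Itgam were not. Spike-in totals moved the median of all protein-coding genes to -0.097 and that of the members to -0.11. No paired analysis was possible because the series holds 1 group. Depth limits the members under 20 counts, where 3 counts are worth 0.011 to 0.13 TPM.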
